A study of Arabidopsis thaliana with 3 samples.

Results

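SOB3-GFP regions whose summit lay inside the span of a protein-coding gene on the chromosome arms numbered 579, of 3823 regions found in both ChIP replicates and of 2875 such regions on the arms. SOB3 is a nuclear protein of the plant Arabidopsis thaliana that carries an AT-hook, and GFP is the tag by which its chromatin was recovered. Overlapping peaks of the replicates (at least 1 bp) were joined, and regions with a peak of each replicate were kept. The position of a region was the summit of its replicate 1 peak with the highest fold enrichment, and that summit had to fall between the annotated start and end of a protein-coding gene. Summits in the pericentromeres, set as 11.5 to 17.7 Mb of chromosome 1, 1.1 to 7.2 Mb of chromosome 2, 10.3 to 17.3 Mb of chromosome 3, 1.5 to 6.3 Mb of chromosome 4 and 9.0 to 16.0 Mb of chromosome 5, were left out. The members were thus chosen by position, and fold enrichment only picked the peak that gave the summit. These are called in-gene regions here, and the genes that hold them host genes.

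The chromatin came from whole plants of the Col-0 ecotype aged 14 days, carrying SOB3-GFP driven by the SOB3 promoter in the sob3-4 mutant background. Plants grew at 22 °C with 16 h of light and 8 h of darkness and were taken at ZT4, that is 4 h after lights-on. Both ChIP replicates were precipitated with an anti-GFP antibody, and the 1 input library, which had no antibody, was not analysed here. All libraries carried the fusion, so signal recovered without SOB3-GFP was not measured, and whole plants mix all tissues. Nothing in the labels states that the replicates were separate plantings, so the spread between them may be technical.

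AT-hook proteins such as SOB3 contact the minor groove of A+T-rich DNA through the AT-hook and bind one another and other transcription factors through a second, conserved domain. In seedlings and young rosettes SOB3 is known as a brake on the elongation of stems and petioles. A gene span, as used here, runs over untranslated regions, exons and introns alike. Which of these a summit lay in, and which end of a gene was its start, was not analysed here.

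The first question was how often SOB3-GFP sat inside genes and where within them. In-gene summits made up 20.1% of the arm regions by the replicate 1 summit (exact 95% interval 18.7% to 21.7%) and 21.0% by the replicate 2 summit (19.6% to 22.6%), while protein-coding spans covered 65.5% of the arm sequence. Intervals here and below cover counting error only, since the peak lists carry no read totals and the depth behind each value is unknown. The number of in-gene regions per megabase of arm gene span was similar on the chromosomes, from 8.27 on chromosome 3 to 10.8 on chromosome 5.

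In-gene summits crowded towards the ends of their genes. Of the 579, 311 (53.7%, exact 95% interval 49.6% to 57.8%) lay within 250 bp of the nearer gene edge, 205 within 100 bp and 125 within 50 bp. For 11 summits (1.90%), which lay in 2 overlapping genes that both counted as host genes, the nearest edge of either gene was used. The stretches within 250 bp of an edge made up 17.1% of the bases of the host genes. Replicate 2 summits, which the choice of members did not use, gave 45.3% within 250 bp among the 510 that fell in the same gene. That count leaves out those that crossed the edge. When replicate 2 summits set the position of every region instead, 53.4% of the in-gene summits lay within 250 bp. The median distance to the nearer edge was 215 bp for replicate 1 summits. For the 510 replicate 2 summits in the same gene it was 303.5 bp. At the other extreme, 125 in-gene summits (21.6%) lay more than 1000 bp from both edges.

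**Figure D1:**
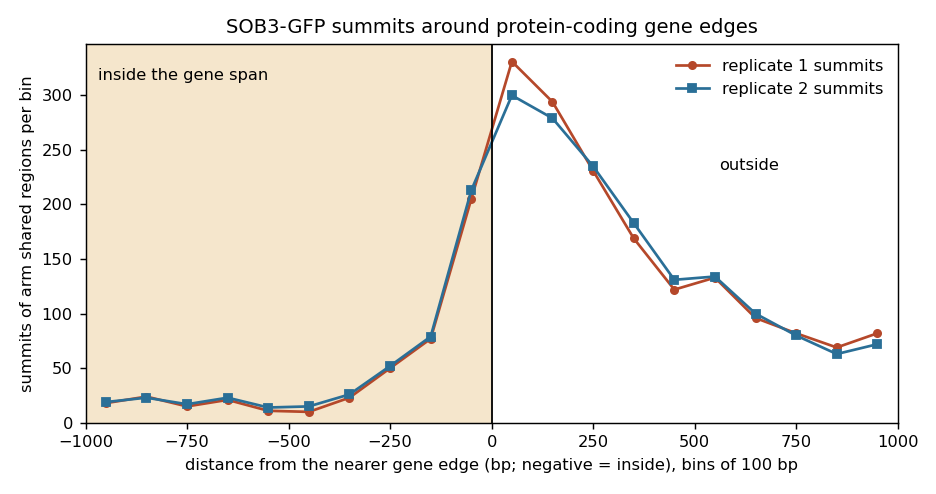
Number of summits of arm shared regions (y axis) per 100 bp of distance from the nearer protein-coding gene edge (x axis, bp; negative values are inside the gene), for replicate 1 (circles) and replicate 2 (squares). Both curves are highest in the first 100 bp outside the edge (331 and 300 summits). They hold 205 and 213 summits in the first 100 bp inside, and drop to 10 and 15 between 401 and 500 bp inside. Counts are not divided by the bases at each distance.

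In both replicates the number of summits was highest just outside the edge and lower with distance on either side. These counts were not divided by the bases at each distance, which become fewer farther from an edge. Inside the gene it fell within the first 500 bp and then stayed between 11 and 24 summits per 100 bp up to 1000 bp. The region itself usually spilled out of the gene when the summit was near an edge. Only 23 of the 311 regions near an edge (7.40%) lay wholly within a gene, against 245 of the 268 regions with the summit farther inside (91.4%). Over all in-gene regions, 46.3% lay wholly within a gene. The gene edge split regions that lay very close to it. HTR12, the gene of the centromeric histone H3, had its summit on its outermost base, and its folds were 3.67 (replicate 1) and 3.24 (replicate 2). AT1G28580 (5.40 and 2.55) and PG2 (3.13 and 2.51) did so too. Just outside, 1 bp from the edge, lay the summits at the auxin-induced repressor gene IAA2 (4.84 and 2.86), at LCR59 (2.49 and 3.01) and at MEF18 (2.06 and 2.50). At the pericentromere bounds, the nearest in-gene summit on the arm side was that of PHS2 (4.84 and 2.67), 6597 bp away, and the nearest on the inner side that of the gibberellin-inactivating GA2OX4 (2.34 and 2.40), 755 bp away.

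Replicate 2 placed its summit in the same gene for 510 of the 579 regions (88.1%, exact 95% interval 85.2% to 90.6%). Counting any protein-coding gene, the replicate 2 summit lay inside a gene for 514 regions, so a few moved into a different gene. For 62 regions the replicate 2 summit fell 1 to 250 bp outside any gene, and for 3 regions 251 to 1000 bp outside. The share was lower near the edge. It was 63.2% (54.1% to 71.6%) for summits within 50 bp, 83.8% from 51 to 100 bp and 90.6% from 101 to 250 bp. All 268 summits farther inside kept their gene, 143 between 251 and 1000 bp and 125 beyond. Between the replicates the summit of an in-gene region moved by a median of 45 bp. Of the 268 regions with summits farther inside, 245 lay wholly within a gene, so their replicate 2 summits could not leave it. The full share there thus followed largely from region size and is no separate support for the call. At the edge the call was less certain.

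In-gene regions had folds close to those of the regions just outside genes. Fold enrichment here is the authors' value at the summit of a peak, a linear ratio of signal to control. In-gene regions had a median fold of 3.13 in replicate 1 (quartiles 2.60 and 3.88) and 2.51 in replicate 2 (2.25 and 2.87). Regions 1 to 250 bp outside a gene had medians of 3.15 and 2.55, regions 251 to 1000 bp outside 2.86 and 2.50, and arm regions farther away 2.95 and 2.50. Each of these differences between position classes was smaller than the difference between the replicates. The difference between replicates is one of level between 2 lists, so it does not measure the error of a class median within 1 list. Regions were not tested against one another. In-gene regions near an edge had medians of 3.22 and 2.51, and those over 250 bp inside 3.03 and 2.48. The median width of an in-gene region was 465 bp.

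**Figure D2:**
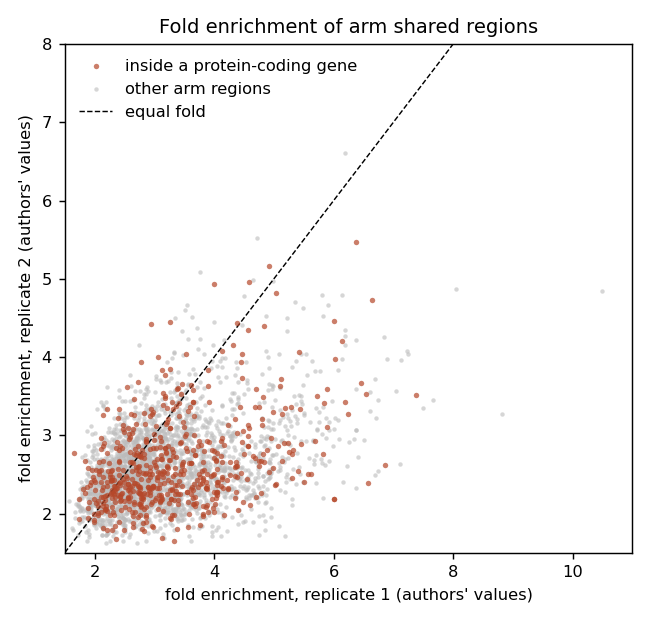
Fold enrichment (authors' values) of each arm shared region in replicate 1 (x axis) and replicate 2 (y axis), with in-gene regions as red points, the other arm regions as grey points and a dashed line of equal fold. In-gene regions lie among the other arm regions, reach 7.38 in replicate 1, and lie mostly below the line, since 76.9% of them had the higher fold in replicate 1.

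The replicates ranked in-gene regions only loosely alike, with a Spearman rho of 0.36 across the 579 regions. Over all 3823 shared regions rho was 0.37, and all come from the same pair of libraries. Fold was higher in replicate 1 at 76.9% of in-gene regions, close to the 77.6% of regions 1 to 250 bp outside genes, and above the 68.0% of arm regions beyond 1000 bp and the 53.5% of pericentromeric regions. A fold of at least 3 in both replicates was reached by 87 in-gene regions (15.03%), about the same share as among all shared regions (15.07%). Among regions 1 to 250 bp outside a gene it was 17.96%. Among the strongest arm regions by the lower of the folds, in-gene regions made up 4 of the top 10, 15 of the top 50, 24 of the top 100 and 99 of the top 500 (19.8%), the last close to their share of all arm regions.

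The 15 strongest in-gene regions, ranked by the lower of the folds, lay in genes of varied kinds. First by the lower fold was a region on chromosome 2, 14522259 to 14522863 (TAIR10, as are all coordinates here), with folds of 6.37 in replicate 1 and 5.47 in replicate 2. Its summit lay where LHB1B2 (AT2G34420), which encodes a pigment-binding protein of the main light-harvesting complex, overlaps RWA3 (AT2G34410), which acetylates cell wall polysaccharides, 27 bp from an edge. HAT14 (AT5G06710), a homeodomain leucine-zipper factor, followed with 4.92 and 5.17 on chromosome 5, 2070237 to 2070685. RPP4 (AT4G16860), a receptor of downy mildew resistance, held a region at chromosome 4, 9492204 to 9492900, with 5.03 and 4.81. Its summit was 3215 bp from the nearer edge, well within the gene, and the RPP4 cluster holds similar genes that can share reads.

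Next came AT1G78230, with folds of 6.63 and 4.72, where the replicate 2 summit fell outside the gene. IAA16 (AT3G04730), an auxin-response repressor, had 4.58 and 4.96 at chromosome 3, 1287865 to 1289482, with both summits over 500 bp inside. BLH1 (AT2G35940), a BELL-class homeodomain factor, had 6.01 and 4.46. The nitrate-response factor NLP7 (AT4G24020) had 4.84 and 4.40, 58 bp from an edge. RUP2 (AT5G23730), which switches off the UV-B receptor UVR8, had 4.57 and 4.35. ROPGAP3 (AT2G46710), a regulator of small ROP GTPases that steer cell growth, had 4.47 and 4.04 at 1366 bp inside. WOX8 (AT5G45980), a homeodomain factor of the early embryo, had 4.00 and 4.93. The remaining 5 of the top 15 lay in genes listed by locus alone, AT1G64340 (4.38 and 4.44), AT1G69760 (6.13 and 4.21), AT1G21830 (4.32 and 4.15), AT5G25420 (4.13 and 4.08) and AT5G21940 (5.42 and 4.07). Of these 15 regions, 14 had the replicate 2 summit in the same gene.

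The in-gene regions lay in 558 host genes, 2.32% of the 24049 protein-coding genes of the arms. In the replicate 1 list alone 7.82% of these genes held a summit, and in the replicate 2 list alone 2.82%. Host genes were longer than arm genes at large, with a median span of 2609.5 bp (quartiles 1845.5 and 3633.75) against 2121 bp (1392 and 3068). With the arm genes put into 5 equal groups by span, the share of host genes was 0.769% in the shortest group, then 2.08%, 2.45% and 2.83%, and 3.47% in the longest (exact 95% interval 2.97% to 4.03%). Per megabase of span the genes of 1212 to 1837 bp held the most host genes, 13.5, and the longest group the fewest, 7.13.

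**Figure D3:**
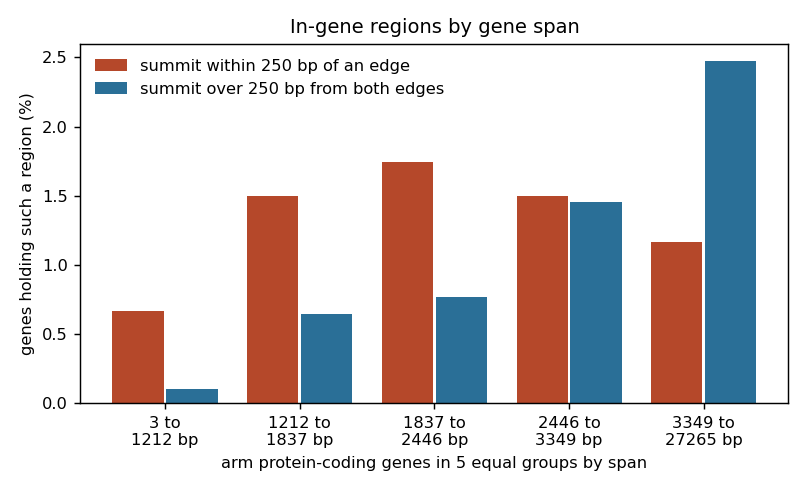
Share of arm protein-coding genes (y axis, %) that hold a region with its summit within 250 bp of an edge (left bars) or over 250 bp from both edges (right bars), in 5 equal groups of genes by span, from shortest to longest (x axis). The share with an edge summit peaks in the middle group at 1.75%, while the share with an interior summit climbs from 0.104% in the shortest group to 2.47% in the longest.

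Edge and interior regions lay in genes of different length, a split that their definition partly sets. The stretch within 250 bp of an edge does not grow with span, whereas longer genes offer more interior bases. Shares per interior base were not computed. Summits near an edge were most frequent in genes of 1837 to 2446 bp and less so in the longest genes (1.16%), whereas interior summits were most frequent in the longest group. The share of genes with 2 or more RefSeq transcripts was 48.2% among host genes and 40.3% among all arm genes. Within the 5 groups by span it was 10.8%, 23.0%, 47.5%, 59.6% and 62.9% among host genes, from shortest to longest, and 9.83%, 28.2%, 43.7%, 54.0% and 65.7% among all arm genes. Host genes were thus higher in 3 of the groups and lower in the other two.

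Host genes stood in roomier surroundings. Where a single gene held the summit, the gap to the next protein-coding gene across the nearer edge had a median of 1103.5 bp for edge summits and 1753.5 bp for interior summits. Over all edges of arm genes the median gap was 558.5 bp. Interior summits lay in the part of the gene that faced the longer gap in 162 of 266 regions (60.9%, exact 95% interval 54.8% to 66.8%), and edge summits in 158 of 298 regions with unequal gaps (53.0%, 47.2% to 58.8%), which spans an even split. Of the host genes, 79 (14.2%, 11.4% to 17.3%) also had a shared summit 1 to 1000 bp outside the span, against 2168 of the arm genes that held no in-gene region (9.23%, 8.86% to 9.61%). Such a summit could lie inside a neighbouring gene.

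A set of 31 genes held more than 1 in-gene region, 30 of them with 2 and AT1G67900 with 3. The outer summits in these genes lay a median of 1670 bp apart. BXL1 (AT5G49360), a beta-xylosidase of the cell wall, had 5.84 and 3.41 at the region 2243 bp inside and 4.55 and 2.45 at the one 66 bp from an edge. LHCB3 (AT5G54270), a light-harvesting protein, had 3.21 and 3.35 at one end and 3.40 and 3.61 at the other, so the 1404 bp gene was marked near both edges. LBD37 (AT5G67420), a nitrogen-responsive repressor, had 6.58 and 2.39 near an edge and 5.19 and 3.35 at 824 bp inside.

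CA2 (AT5G14740), a carbonic anhydrase of leaves, had 2.55 and 3.62 at 1987 bp inside and 2.86 and 2.92 near an edge. Among genes known by locus alone, the stronger region had 3.17 and 3.77 in AT1G80380, 4.56 and 2.99 in AT3G26510, 2.92 and 3.25 in AT5G62720, 3.52 and 2.84 in AT1G49500, 3.17 and 2.84 in AT1G54820, and 3.29 and 2.82 in AT1G65985. A few others were picked after their values were seen. KAI2 (AT4G37470), the karrikin receptor, had 4.44 and 2.51 in one region and 3.30 and 2.31 in the other. SVP (AT2G22540), a repressor of flowering, had 3.64 and 2.20 near an edge and 2.53 and 2.48 at 1243 bp inside. The leaf enzyme genes CA1 and CAT2 (catalase) each held 2 regions as well. The deepest in-gene summits were a pair in the 19695 bp gene AT1G58602, 8842 and 8746 bp from the nearer edge, with folds of 2.68 and 2.39, and 2.74 and 2.12.

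Photosynthesis genes had the highest share of host genes. Of 40 arm genes for light-harvesting proteins, photosystem subunits, plastocyanin, the Rieske protein and the small subunit of Rubisco, 20 were host genes (50%, exact 95% interval 33.8% to 66.2%), against 2.32% of all arm genes. Over the 36 families, each holding the genes whose RefSeq symbol (for SAUR and AHL genes also a synonym) fits its name, the median share was 5.26%. Genes of a family listed under other names were not counted. The genes are short, with a median span of 1340.5 bp, and among arm genes of 1212 to 1837 bp 2.08% were hosts. Another 10 had a shared summit 1 to 1000 bp outside and none inside, 1 (PSAH-1) had a summit in the replicate 2 list alone, and 9 had neither. A summit counted as outside could lie inside a neighbouring gene. Counting summits inside or within 1000 bp gave 30 of the 40 genes, against 11.3% of all arm genes. That these genes often hold peaks was known from earlier results on these data, so their count is no independent support for it.

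**Figure D4:**
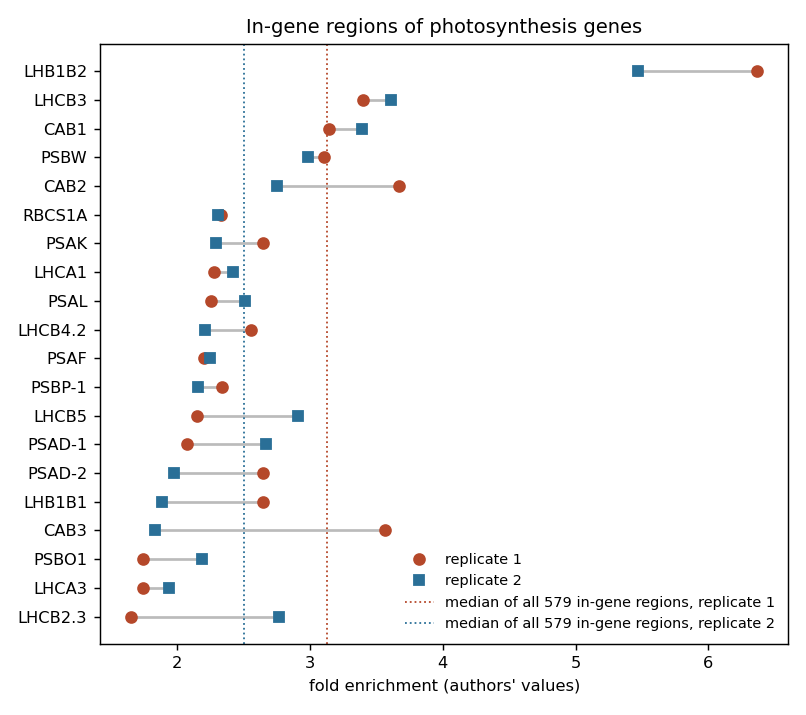
Fold enrichment (x axis, authors' values) of the in-gene region of each of 20 photosynthesis genes (rows; the stronger region where a gene has 2), in replicate 1 (circles) and replicate 2 (squares), with dotted lines at the medians of all 579 in-gene regions (3.13 and 2.51). LHB1B2 stands apart at 6.37 and 5.47, and most other genes lie below the replicate 1 median.

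In replicate 1 most of the in-gene regions of photosynthesis genes had folds below the median of all in-gene regions, while in replicate 2 they lay on both sides of it. Over the 20 host genes the fold went from 1.65 to 6.37 in replicate 1 (median 2.45) and from 1.83 to 5.47 in replicate 2 (median 2.36). Over all in-gene regions these medians were 3.13 and 2.51. Replicate 1 gave the higher value in 10 of these 20 genes, against 76.9% of all in-gene regions. The replicate 1 list alone held a summit in 21 of the 40 genes and the shorter replicate 2 list in 24, against 7.82% and 2.82% of all arm genes. When peaks with a −log10 q under 5 were left out, 7 of the 40 genes were still hosts, while the share among all arm genes was 1.31%.

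Among light-harvesting genes of photosystem II, LHCB3 led after LHB1B2. CAB1 (AT1G29930) had 3.14 in replicate 1 and 3.39 in replicate 2, CAB2 (AT1G29920) 3.67 and 2.75, and CAB3 (AT1G29910) 3.57 and 1.83. These neighbours, and LHB1B1 (2.64 and 1.88) beside LHB1B2, are near-identical copies that can share reads, so single members are uncertain. LHCB4.2 had 2.56 and 2.21 at the stronger of its 2 regions and LHCB5 2.15 and 2.91. LHCB2.3 had 1.65 and 2.77, the lowest replicate 1 value of the list. As for LHB1B2, the summits at CAB1, at LHCB2.3 and at the LHCB3 region with 3.40 and 3.61 also lay in a second, overlapping gene.

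Of the other genes on the list, PSBW, a small photosystem II subunit, had the highest lower fold, with 3.10 and 2.98. PSAK (2.65 and 2.29), PSAL (2.25 and 2.51), PSAF (2.20 and 2.24), PSAD-1 (2.07 and 2.67) and PSAD-2 (2.64 and 1.97) encode photosystem I subunits. PSBP-1 (2.34 and 2.15) and PSBO1 (1.74 and 2.18) belong to the oxygen-evolving complex. LHCA1 (2.27 and 2.42) and LHCA3 (1.74 and 1.93) are antenna proteins of photosystem I, and RBCS1A (2.33 and 2.31) is a small subunit of Rubisco. In 17 of the 20 genes the stronger region had its summit within 250 bp of an edge, either of that gene or of a gene that overlapped it there. Of the 20 genes, 9 also had a shared region outside the gene.

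**Figure D5:**
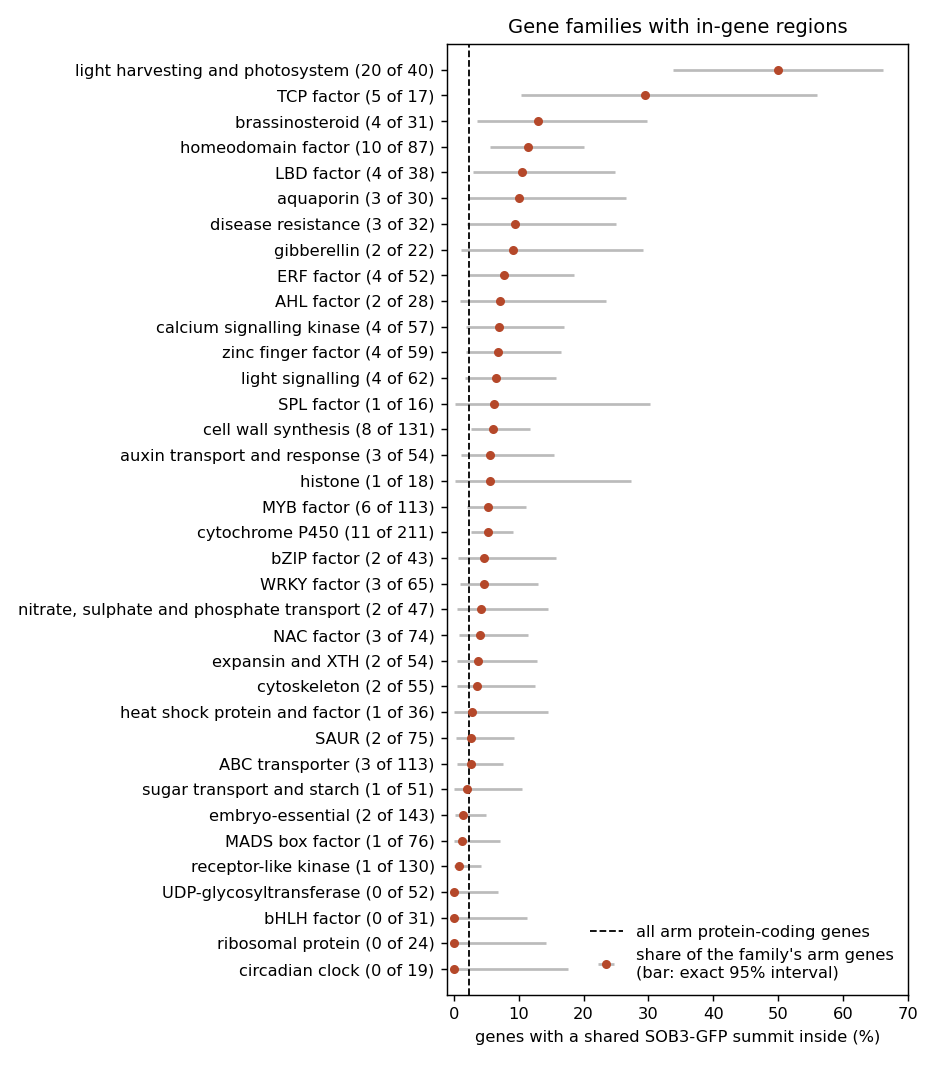
Share of arm genes with an in-gene region (x axis, %) for each of 36 gene families (rows, with host genes and arm genes in parentheses), as points with exact 95% intervals of counting error; the dashed line is the 2.32% of all arm genes. Photosynthesis genes stand at 50% and TCP genes at 29.4%, and 4 families, as listed by symbol, have no host gene.

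Light-signalling genes outside photosynthesis gave 4 host genes of 62 (6.45%, exact 95% interval 1.79% to 15.7%). Besides RUP2 they were SPA3 (AT3G15354, 4.57 and 2.87), part of the COP1 complex that suppresses light responses, and BBX21 (AT1G75540, 3.24 and 2.43), a B-box factor that promotes them. PHOT2 (AT5G58140), a blue-light receptor, had 3.87 and 2.33 at 418 bp inside. Of 19 circadian clock genes, listed by symbol, none was a host (exact 95% interval up to 17.6%). This does not set the list apart from the 2.32% of all arm genes. In the replicate 1 list alone 4 of the 19 held a summit, against 7.82% of all arm genes.

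Growth hormone lists are read against the 2.32% of all arm genes, or the 7.82% that held a summit in the replicate 1 list alone. Of 54 auxin transport and response genes 3 were hosts (5.56%, exact 95% interval 1.16% to 15.4%), all with interior summits, and 13 held a summit in the replicate 1 list alone (24.1%). Besides IAA16 the host genes were the auxin efflux carriers PIN3 (AT1G70940, 4.69 and 2.71, 1207 bp inside) and PIN7 (AT1G23080, 4.79 and 2.67, 1278 bp inside). These close paralogs had similar folds and similar distances to the nearer edge, but which end that was in each gene was not analysed. Of 75 SAUR genes, small auxin-induced proteins, 2 were hosts, AT1G72430 (4.05 and 2.24) and AT1G17345 (2.11 and 2.97), both at an edge. The gibberellin genes gave 2 of 22 (9.09%, 1.12% to 29.2%), the biosynthetic GA3OX2 (2.82 and 2.77) and the inactivating GA2OX2 (2.80 and 2.196). In the replicate 1 list alone 8 of the 22 held a summit (36.4%).

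Brassinosteroid genes gave 4 of 31 (12.9%, exact 95% interval 3.63% to 29.8%). The receptor BRI1 (AT4G39400) had 3.44 and 2.92 at 67 bp from an edge, the biosynthetic enzyme CPD (AT5G05690) 3.68 and 2.75 at 793 bp inside, and the transcription factor gene BEH1 3.81 and 2.10. The fourth was ROT3, another biosynthetic enzyme, at 2.32 and 1.98. The replicate 1 list alone held 11 of the 31 genes and the replicate 2 list 5.

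Among transcription factors the shares, each read against 2.32%, ran up to that of the TCP family. The exact 95% interval lay wholly above 2.32% only for the TCP, homeodomain and LBD (from 2.94%) lists. These intervals cover counting error only and are no test, so no difference from all arm genes is shown for these lists either. The intervals of the other transcription factor lists included 2.32%. TCP factors, which set the growth of leaves, gave 5 of 17 (29.4%, exact 95% interval 10.3% to 56.0%), all at gene edges. They were TCP8 (3.22 and 3.21), TCP5 (3.84 and 2.81), TCP9 (4.04 and 2.28), PTF1 (3.03 and 2.21) and TCP14, which held 2 regions. This count was 2 when peaks under a −log10 q of 5 were left out, 1 at 10, 0 with the top 1000 peaks of each list and 7 in the replicate 1 list alone. Homeodomain factors gave 10 of 87 (11.5%, 5.65% to 20.1%). This count was 9 at a −log10 q of at least 5, 4 at 10, 3 with the top 1000 peaks of each list and 23 in the replicate 1 list alone. Besides HAT14, BLH1 and WOX8 they included ATHB13 (3.91 and 2.92), BEL1 (3.19 and 2.78) and HB5 (2.70 and 2.75). Of these 10 genes, 6 had interior summits.

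LBD factors gave 4 of 38 (10.53%), with LBD37, LBD11 (3.14 and 3.84) and LBD42 (2.71 and 2.78) at the top. The LBD count was 3 at a −log10 q of at least 5, 2 at 10, 1 with the top 1000 peaks of each list and 5 in the replicate 1 list alone. ERF factors gave 4 of 52 (7.69%), all at edges, and for ERF7 and CRF2 the replicate 2 summit did not lie in the gene. DREB1A (AT4G25480), the cold-response factor, had the highest replicate 1 fold of all in-gene regions, 7.38, with 3.52 in replicate 2, and ERF7 had 4.59 and 3.10. CRF2, a cytokinin response factor, had 2.62 and 2.02. Zinc finger factors gave 4 of 59 (6.78%), all interior, with IDD5 (4.47 and 3.73), ZFP4 (4.01 and 2.51) and GATA29 (2.50 and 3.04) leading.

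MYB factors gave 6 of 113 (5.31%), led by MYB102 (3.42 and 3.41), the trichome factor MYB23 (2.67 and 3.27) and MYB95 (3.06 and 2.47). WRKY factors gave 3 of 65 (4.62%), with the defence regulator WRKY33 (3.46 and 3.66), WRKY43 (2.41 and 3.33) and WRKY7 (5.03 and 2.38). NAC factors gave 3 of 74 (4.05%), NAC083 (3.48 and 2.66), the vessel-forming VND7 (4.39 and 2.46) and NAC067 (2.80 and 2.26). The bZIP factors gave 2 of 43, bZIP2 (3.77 and 2.88) and TGA9 (2.14 and 2.68), and the TGA9 summit lay 3272 bp inside. SPL factors gave 1 of 16, SPL12 (3.24 and 2.14), and MADS box factors 1 of 76 (1.32%), the gene SVP. In the AHL family, to which SOB3 belongs, 2 of 28 genes were hosts, AT3G04590 (AHL14, 3.62 and 2.64) and AT5G49700 (AHL17, 3.89 and 2.31). None of the 31 bHLH factors listed by symbol was a host, although 5 held a summit in the replicate 1 list. Genes for bHLH factors under other symbols were not counted, so the family may still hold host genes.

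Enzymes, wall and membrane proteins are given next, against the same 2.32%. Cell wall synthesis gave 8 of 131 (6.11%), among them RWA3, the pectin synthesis gene GAUT9 (3.52 and 3.02) and GATL6 (4.04 and 2.69). Cell-wall loosening expansin and XTH genes gave 2 of 54 (3.70%), XTH32 (3.23 and 2.87) and XTH7 (3.61 and 2.25), with summits 1010 and 1036 bp inside. Their spans were similar, 2222 and 2076 bp, so both summits lay near the middle of the gene. Aquaporins gave 3 of 30 (10.0%), PIP1B (2.67 and 2.76), which held a region near each end, PIP1;4 (2.65 and 3.08) and PIP2E (4.23 and 2.31). Cytochrome P450 genes gave 11 of 211 (5.21%), with CYP81F2 (2.98 and 3.30), an enzyme of indole glucosinolates, CYP71B13 (2.82 and 2.52) and CYP71B35 (4.27 and 2.49) at the top.

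Calcium-signalling kinase genes gave 4 of 57 (7.02%), including CIPK16 (4.56 and 3.14), CPK5 (3.72 and 2.43) and CIPK20 (2.35 and 2.84). ABC transporters gave 3 of 113 (2.65%), ABCG22 (4.99 and 3.30), ABCG25 (2.76 and 2.73), an exporter of abscisic acid, and ABCF1 (2.10 and 2.56). Nutrient transporters gave 2 of 47 (4.26%), the sulphate carrier SULTR1;2 (2.62 and 2.36) and the nitrate carrier NRT1.1 (3.28 and 1.94). Sugar transport and starch gave 1 of 51, STP1 (4.37 and 2.28), heat shock genes 1 of 36, HSFB2A (4.68 and 3.37), and the cytoskeleton 2 of 55, ACT7 (3.04 and 2.47) and TUB5 (4.60 and 2.11). Disease resistance genes gave 3 of 32 (9.38%), RPP4, ADR1-L1 (4.57 and 2.87) and PAD4 (5.32 and 2.81), of which PAD4 held 2 regions.

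Some further lists, each holding only the genes whose symbol fits its name, had few or no host genes. Host genes of these families under other symbols were not counted. None of 24 ribosomal protein genes was a host (exact 95% interval up to 14.2%), and none held a summit in the list of either replicate alone. None of 52 UDP-glycosyltransferase genes was a host (up to 6.85%), although 9 held a replicate 1 summit. Embryo-essential genes gave 2 of 143 (1.40%, exact 95% interval 0.170% to 4.96%), EMB2247 (3.65 and 3.43) and EMB506 (2.15 and 2.34), and receptor-like kinases 1 of 130 (0.769%), BRI1. Histone genes gave 1 of 18 (5.56%), HTR12, and none when replicate 2 summits set the position. The intervals of these lists reach 2.32%, so none of them is shown to lie below the share of all arm genes.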

How the data were processed

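The deposited data were 1 peak list per ChIP replicate, with 9980 and 4788 peaks. Per the submitters' processing notes, the authors used bcl2fastq, Bowtie 0.12.9, MACS2 and the TAIR10 build. For MACS2, its version, control and threshold were not given in the sources used. Fold enrichment is the authors' linear ratio at each summit, beside the authors' −log10 p and −log10 q; the lowest −log10 q was 1.33 and 1.30. The authors' score column repeats −log10 q (whole part of 10 times it in 100% of peaks). Peak lists hold no depth.

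Peaks were joined, and summits placed, with Python 3.11.15, pandas 2.3.3 and SciPy 1.17.1, tested on simulated peaks. Gene spans came from RefSeq (TAIR10.1), taken to share TAIR10 coordinates, with 27432 protein-coding genes; the table's coordinates are not printed. A gene counted as on an arm by its midpoint. No region or gene was tested against others, because regions of 1 pair of libraries are not replicates. Members and lists were chosen with earlier results of these data known, and CYP38, a cyclophilin, was taken off the P450 list later. Named are the hosts of the 15 regions with the highest lower fold, up to 10 genes with 2 or more regions, up to 3 hosts per family and the regions nearest to the rule's bounds; others were chosen after their values were seen.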

Additional observations from a re-analysis of the deposited data

Results flagged for a closer look

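Peaks inside arm protein-coding genes that had no partner in the other replicate were set aside by the choice of members and stand as signal outside the main counts. Replicate 1 held 1528 of them, with a median fold of 2.48, in 1427 genes, of which 106 were also host genes. They made up 27.8% (exact 95% interval 26.6% to 29.0%) of the replicate 1 arm peaks without a partner, against 20.1% of arm shared regions. Replicate 2 held 102, with a median fold of 2.35, in 105 genes, of which 13 were also host genes, and these were 18.8% (15.6% to 22.4%) of its arm peaks without a partner. The replicates thus differed in how much in-gene signal the other did not share, and the cause was not tested.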

How the results depend on the processing

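Stricter peaks gave fewer in-gene regions, 315 at a −log10 q of at least 5, 86 at 10 and 50 with the top 1000 peaks of each list, by construction; 720 to 2111 were left with 1 list alone. Their share of arm regions was 18.6% at −log10 q of 5, 21.7% with all annotated genes, and 20.6% to 25.2% with 1 list alone. The share of arm genes that were hosts was 1.90% with a reciprocal overlap of 50%, 1.31%, 0.370% and 0.216% with the stricter peaks, 2.08% with all annotated genes, and 2.82% to 7.82% with 1 list alone. Summits within 250 bp of an edge made up 48.8% at −log10 q of 10 and 50.4% to 59.6% with 1 list alone. The other replicate's summit lay in the same gene for 91.9% at −log10 q of 10 and 84.3% when replicate 2 gave the position. Median folds were 3.90 and 3.50 at −log10 q of 10, 4.86 and 3.51 with the top 1000 peaks, and 2.60 and 2.465 with each list alone. Photosynthesis host genes numbered 7, 5 and 2 with the stricter peaks and 21 to 24 with 1 list alone. For the other 35 families, 227 of 350 alternative counts were within 1.5 times the main count. Of the 123 outside, 31 came from leaving out replicate 2 (auxin 13 against 3, ERF 13 against 4, UDP-glycosyltransferase 9 against 0), 6 from leaving out replicate 1, 29 from the top 1000 peaks, and 28 and 16 from −log10 q of 10 and 5. The printed family counts thus rest on requiring a peak in both lists. The median host span kept within its interval throughout. Position relative to the start of the gene needed strand and was not run, and neither were same-gene shares in single lists. No paired analysis was possible because the ChIP libraries form 1 group and no result comes from a test between groups. Depth is unknown, so whether weaker in-gene sites lie below detection was not tested.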
